A study of Mus musculus with 22 samples.

Results

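The gene set comprised 29 mouse genes of inhibitory signalling: 9 subunits of GABA-A receptors, 2 subunits of GABA-B receptors, 4 genes of GABA synthesis, vesicle loading and uptake, 2 genes of postsynaptic anchoring and adhesion, 2 chloride transporters and 10 interneuron markers. The members were chosen by symbol and all 29 were found in both tables of splicing deficiency scores (Sd scores), among 15705 genes in the table of 6-month cortex and 15192 genes in that of 12-month cortex. An Sd score is a ratio per gene and library, read here as more unspliced signal where it is higher. It is no expression level, and no statement on the amount of any transcript follows from it.

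GABA, made from glutamate by glutamate decarboxylases, opens the chloride channel of GABA-A receptors and acts on the slower, G-protein-coupled GABA-B receptors. Whether opening that channel inhibits a neuron depends on its internal chloride, which the importer NKCC1 (Slc12a2) raises and the exporter KCC2 (Slc12a5) lowers. Cortical GABA is released by interneurons, whose classes are told apart by markers such as parvalbumin, somatostatin and vasoactive intestinal peptide.

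The 6-month libraries came from cortex of littermates of a cross of N40K-Tg +/- and FAD +/- mice, with 3 libraries each of WT, N40K, 5xFAD and dTg animals. The N40K transgene encodes an N-terminal piece of the Snrnp70 protein, part of the U1 particle that recognises 5′ splice sites. In 5xFAD mice, mutant human transgenes cause amyloid to accumulate, and dTg mice have the N40K and the 5xFAD transgenes together. The 12-month libraries came from cortex of littermates of a cross of Tau P301S +/- and WT mice, with 4 libraries of WT animals and 6 of Tau P301S animals, which carry a mutant tau transgene. The promoters of the N40K and tau transgenes and the strain are not given in the sources used here, and no label says that the libraries of a group are separate animals, so the p-values measure the spread between these libraries.

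Read depth per library is unknown, so no counting interval is given. The median score over all genes was 0.029 to 0.031 in libraries without the N40K transgene at 6 months, and the highest medians were those of N40K replicate 1 (0.036) and dTg replicate 2 (0.035). At 12 months the medians ran from 0.013 to 0.017, with WT replicates 3 and 4 highest. No 2 libraries were identical, and all 10 excitatory neuron genes, all 10 astrocyte genes, 6 of 10 microglial, 7 of 10 oligodendrocyte and 5 of 8 endothelial and pericyte genes on the marker lists had a score at 6 months. In bulk cortex, fewer cells of a type and less RNA per cell cannot be told apart, and the score measures neither.

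Most inhibitory genes had low scores. At 6 months the median of the 29 mean scores was 0.00442, against 0.0315 over all genes, and 15 members lay under 0.005. Only Gabrd, Slc32a1, Nlgn2 and Lhx6 reached 0.02. A score is deposited with 3 decimals, so 1 step of the last decimal (0.001) is a large part of such values: 13 of the 29 varied by at most 1 step over the 12 libraries, against 7.37% of all genes. Gabra3, Gabrb2 and Slc6a11 (0.001) and Erbb4 (0.002) had the same score in all 12. For these genes the tables cannot show a difference smaller than the rounding.

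Low scores went with long introns, in these genes as in others. Across the 29 genes the summed intron length and the mean 6-month score had a Spearman rho of −0.621, and across 14826 genes with an intron it was −0.62. These are correlations across genes, which share libraries and are no independent replicates. The median intron length was 57.2 kb in the members and 21 kb over all genes (GENCODE M21). Erbb4, a neuregulin receptor of interneurons, had 1060 kb of intron, and Gabrd, a subunit of extrasynaptic receptors, had 10.3 kb and the highest mean score of the set (0.0363). Some members with short introns had low scores too: Sst (0.665 kb, score 0.00667), Npy (6.23 kb, 0.00325) and Pvalb (14.2 kb, 0.00267). The correlation was computed at 6 months only.

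Slc12a2 (ENSMUSG00000024597), the chloride importer NKCC1, had the largest change of the 29 genes in the averaged N40K comparison. Sst (−0.58) was farther from 0 in N40K minus WT and Gphn (0.60) in dTg minus WT. Its score was 0.013, 0.011 and 0.013 in WT and 0.013, 0.011 and 0.011 in 5xFAD libraries. It was 0.019, 0.02 and 0.018 in N40K and 0.018, 0.022 and 0.018 in dTg libraries. All 6 carriers of the transgene lay above all 6 other libraries, and within carriers the N40K and dTg libraries overlapped. Averaged over 5xFAD status, the score rose from 0.012 ± 0.0011 to 0.0192 ± 0.0016 (SD, n = 6 each), which is 0.60 ± 0.0669 (SE) on the scale of log2(score + 0.002), or 1.51-fold (limma, adjusted p = 0.00514). All folds below include this pseudocount of 0.002 and so understate changes of low scores.

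The rise of Slc12a2 was seen within each background. Between dTg and 5xFAD mice it was 0.64, or 1.56-fold (limma, adjusted p = 0.0385). Between N40K and WT mice the difference was 0.55, or 1.47-fold, without overlap of the libraries, and did not pass (adjusted p = 0.0567). Between dTg and WT mice, which differ in both the N40K and the 5xFAD transgenes, it was 0.57, or 1.49-fold (adjusted p = 0.0328). The averaged rise passed with each of the 12 libraries left out in turn (adjusted p up to 0.0192) and without both libraries of highest median (0.55, adjusted p = 0.00667). The pairwise calls were less stable: dTg minus 5xFAD missed the threshold without 5xFAD replicate 1 (0.0552), 2 (0.0915) or 3 (0.173) and without dTg replicate 2 (0.0702) or 3 (0.0538). The call of dTg minus WT missed it without WT replicate 1 (0.0916), 2 (0.11) or 3 (0.0697) and without dTg replicate 2 (0.0843).

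Slc12a5 (ENSMUSG00000017740), the chloride exporter KCC2, did not pass in any comparison at 6 months. Its score was 0.018, 0.017 and 0.019 in WT, 0.023, 0.018 and 0.019 in N40K, 0.019, 0.019 and 0.018 in 5xFAD and 0.019, 0.022 and 0.023 in dTg libraries. The groups overlapped, with N40K replicate 1 and dTg replicates 2 and 3 above the rest. The averaged N40K difference was 0.15 (95% confidence interval 0.01 to 0.30, adjusted p = 0.157), against a median of 0.09 over all genes. The difference between the changes of the importer and the exporter was not tested.

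**Figure D1:**
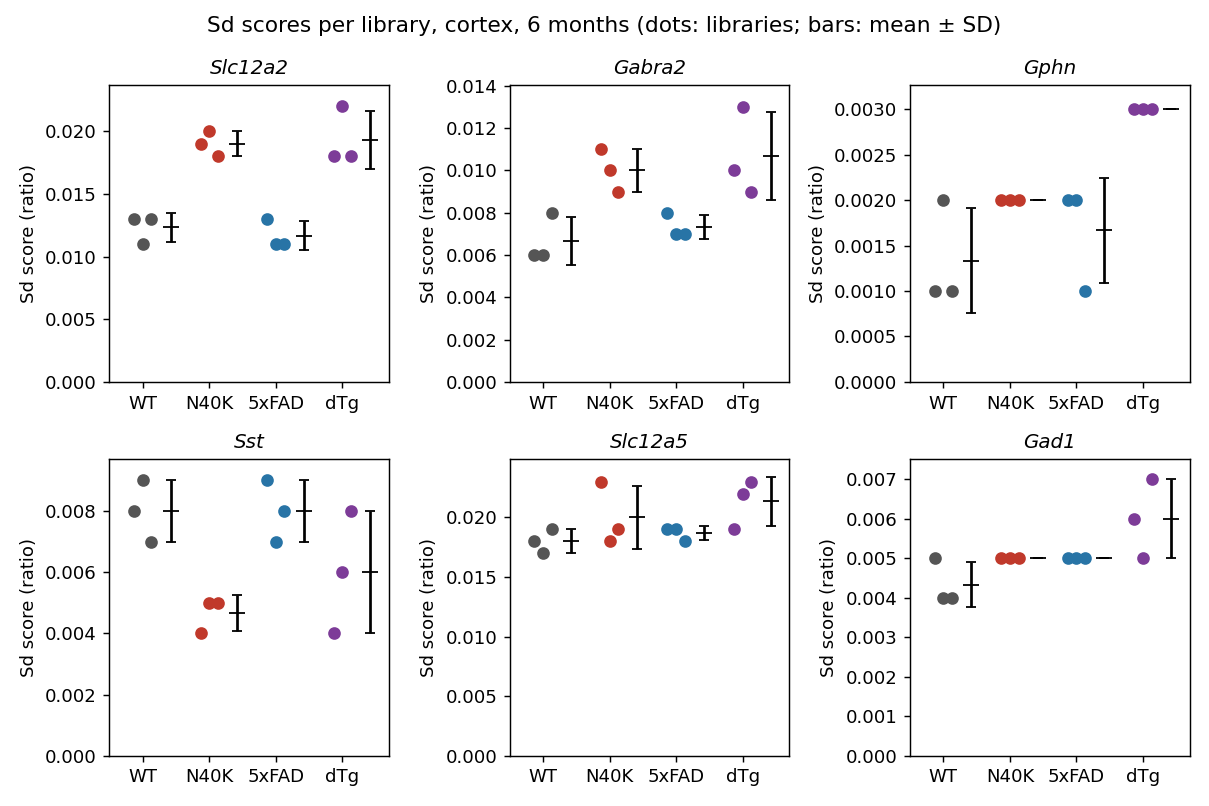
Sd scores (ratio, linear axes from 0) of 6 inhibitory genes in each of the 12 libraries at 6 months, by genotype; dots are libraries and bars the mean ± SD (n = 3). Slc12a2 and Gabra2 lie higher in all N40K and dTg libraries than in all WT and 5xFAD libraries, while Slc12a5 and Gad1 overlap between genotypes.

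The plot of single libraries at 6 months shows how few rounding steps separate some of these groups: Gphn takes the values 0.001 to 0.003 only. It also shows that the 3 N40K libraries of Slc12a2 lie as high as the 3 dTg libraries. Sst is the gene there with its carriers below the other libraries, and dTg replicate 3 overlaps with them.

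Of the 9 GABA-A receptor subunits, Gabra2 rose with N40K and the other 8 did not pass (10.8% of all genes rose and 0.936% fell). Gabra2 (ENSMUSG00000000560) encodes the alpha2 subunit of synaptic receptors. Its score was 0.006, 0.006 and 0.008 in WT and 0.008, 0.007 and 0.007 in 5xFAD libraries. It was 0.011, 0.01 and 0.009 in N40K and 0.01, 0.013 and 0.009 in dTg libraries. Again the carriers lay above the other libraries, by at least 1 step. Averaged over 5xFAD status the change was 0.45 ± 0.0915 (SE), or 1.37-fold (limma, adjusted p = 0.0187). The call held in each of 12 fits that lacked 1 library, where the adjusted p reached 0.0494 at most, in the fit lacking WT replicate 2. It missed the threshold without both libraries of highest median (0.36, adjusted p = 0.0541). In single pairs of groups it did not pass, with 1.39-fold for N40K minus WT (adjusted p = 0.105), 1.35-fold for dTg minus 5xFAD (0.138) and 1.46-fold for dTg minus WT (0.0603).

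Gabrg3, which encodes a gamma subunit, had the next difference among the receptors. Its score was 0.003, 0.004 and 0.003 in WT, 0.006, 0.005 and 0.005 in N40K, 0.004, 0.005 and 0.003 in 5xFAD and 0.005, 0.006 and 0.004 in dTg libraries. N40K libraries were higher than all WT libraries, and dTg overlapped with 5xFAD. The averaged difference of 0.34 (1.27-fold) did not pass (adjusted p = 0.0593).

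Gabra4, an alpha subunit of extrasynaptic receptors, had a score of 0.007 in every WT library and of 0.006 in every N40K library, a gap of 1 step (N40K minus WT, adjusted p = 0.178). In 5xFAD and dTg it was 0.006 or 0.007. Gabrg1 stood at 0.002 in every library except N40K replicates 1 and 2 (0.003). Without N40K replicate 3 (0.002) its remaining N40K libraries had no spread, and the gene passed in N40K minus WT, in dTg minus N40K and in the averaged N40K comparison. Gabrd, with the highest scores, was 0.0362 ± 0.0024 without and 0.0363 ± 0.00596 with the transgene (SD, n = 6 each), with N40K replicate 1 at 0.048. Gabra5, which encodes a further alpha subunit, ranged from 0.003 to 0.005 and the beta subunit gene Gabrb1 from 0.002 to 0.003, and Gabra3 and Gabrb2 were constant.

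Many GABA-A receptor genes are neighbours on the chromosome, so the rise of Gabra2 can be set beside the genes around it. In the GENCODE M21 order Gabrg1, Gabra2, Gabra4 and Gabrb1 follow each other with Cox7b2 between Gabra2 and Gabra4. Of these receptor genes Gabra2 alone passed: the averaged N40K differences were 0.11 for Gabrg1 (adjusted p = 0.219), −0.08 for Gabra4 (0.216) and 0.05 for Gabrb1 (0.552). Whether these differ from that of Gabra2 was not tested. Gabrg3 lies beside Gabra5, whose difference was 0.08 (adjusted p = 0.546). Gabra4 overlaps Gabrb1 on the opposite strand. Reads of these overlapping genes may not be told apart, since no source used here states whether the authors' counting used strand.

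The GABA-B receptor genes did not pass. Gabbr1, whose product binds GABA, was 0.014 ± 0.0011 without and 0.0137 ± 0.00137 with the N40K transgene (SD, n = 6 each; adjusted p = 0.787). Gabbr2, whose product couples to the G protein, was at 0 or 0.001 in every 6-month library, at the limit of the rounding.

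The genes that make, load and take up GABA did not pass either. Gad1, the decarboxylase GAD67, was 0.005, 0.004 and 0.004 in WT, 0.005 in all N40K and all 5xFAD, and 0.006, 0.005 and 0.007 in dTg libraries. The dTg libraries thus reached highest, with replicate 2 inside the range of the other groups. The difference of dTg minus WT was 0.33, or 1.26-fold (adjusted p = 0.0776), and the averaged N40K difference was 0.17 (adjusted p = 0.117). Gad1 has an annotated antisense gene, Gad1os, on the opposite strand.

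Gad2, the decarboxylase GAD65, was 0.002, 0.001 and 0.001 in WT, 0.002, 0.001 and 0.002 in N40K, 0.002, 0.002 and 0.001 in 5xFAD and 0.002 in all dTg libraries, all within 1 step. Slc32a1, the vesicular GABA transporter, spread widely among replicates, from 0.016 to 0.032 in N40K mice alone. It was 0.0202 ± 0.00407 without and 0.0247 ± 0.00628 with the transgene (SD, n = 6 each; adjusted p = 0.381), and its highest libraries were N40K replicate 1 and dTg replicate 3 (0.032 each). Slc6a11, a GABA transporter of astrocytes, was constant at 0.001.

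Gphn (ENSMUSG00000047454) encodes gephyrin, the scaffold that holds inhibitory receptors at the synapse. Its score was 0.001, 0.002 and 0.001 in WT, 0.002 in all N40K, 0.002, 0.002 and 0.001 in 5xFAD and 0.003 in all dTg libraries. The N40K libraries overlapped with WT, and the dTg libraries lay above all others. The averaged rise of 0.37, or 1.29-fold, passed (limma, adjusted p = 0.0366), although no group mean differed from another by more than 2 steps. It missed the threshold with 9 of the 12 libraries left out singly: WT replicate 1 (0.0787) or 3 (0.0694), N40K replicate 1 (0.0746), 2 (0.0566) or 3 (0.0632), 5xFAD replicate 3 (0.0586), and dTg replicate 1 (0.0507), 2 (0.0794) or 3 (0.0644). The adjusted p was 0.14 when N40K replicate 1 and dTg replicate 2 were left out together, and 0.14 after centring of libraries on their medians. Nlgn2, the adhesion molecule neuroligin 2 of inhibitory synapses, was 0.0282 ± 0.00426 without and 0.0285 ± 0.00266 with the transgene (SD, n = 6 each; adjusted p = 0.92).

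Of the 10 interneuron markers, 1 fell with N40K and none rose in the averaged comparison (0.936% of all genes fell and 10.8% rose). Sst (ENSMUSG00000004366) encodes somatostatin, a peptide of dendrite-targeting interneurons. Its score was 0.008, 0.009 and 0.007 in WT and 0.009, 0.007 and 0.008 in 5xFAD libraries. It was 0.004, 0.005 and 0.005 in N40K and 0.004, 0.006 and 0.008 in dTg libraries. All N40K libraries lay below all WT libraries, while dTg replicate 3 lay within the 5xFAD range. The averaged change was −0.47 ± 0.121 (SE), or 0.724-fold (limma, adjusted p = 0.0387). N40K minus WT stood at −0.58 (adjusted p = 0.123) and dTg minus 5xFAD at −0.35 (0.315), and the difference between both was 0.24 (95% confidence interval −0.31 to 0.78).

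The fall of Sst was larger once the libraries were centred on their medians (−0.60, adjusted p = 0.0157). It missed the threshold with 10 of the 12 libraries left out singly: WT replicate 1 (0.0767), 2 (0.0895) or 3 (0.0506), N40K replicate 1 (0.0884), 2 (0.0524) or 3 (0.0579), 5xFAD replicate 1 (0.079), 2 (0.051) or 3 (0.0821), and dTg replicate 2 (0.0801). In the fit lacking both N40K replicate 1 and dTg replicate 2 it was −0.44 (adjusted p = 0.157). In lists of other cell types Sox9 fell among 10 astrocyte genes, Olig2 among 7 oligodendrocyte genes and Tek among 5 endothelial and pericyte genes. The same averaged comparison had 2 astrocyte rises (Slc1a2 and S100b), 1 rise among 10 excitatory genes (Rorb) and no call among 6 microglial genes. Over all genes 10.8% rose and 0.936% fell. Of the 12 fits lacking 1 library, Sox9 missed the threshold in 10, Olig2 in 11, Slc1a2 in 9 and Rorb in 3, while Tek and S100b passed in all. After centring, Slc1a2, S100b and Rorb did not pass. Their part in the result was not tested.

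Sst and Slc32a1 each have a single intron in the annotation, so each has 1 splice junction. Whether the score counts reads across it is not known, since its formula is not at hand. The bases around these junctions are shown because U1 pairs with the end of the exon as well as the start of the intron. The lines give the last 15 bases of exon 1 and the first 15 of exon 2 of the GENCODE M21 transcripts (GRCm38), 5′ to 3′ on the coding strand, with the last 3 bases of exon 1 in capitals.
Sst: gccaccgggaaaCAGgaactggccaagtac
Slc32a1: acaaatgccattCAGggcatgttcgtgctg
Exon 1 ends in the same CAG in both genes. The intron is 0.665 kb long in Sst and 2.19 kb in Slc32a1, and the mean 6-month scores were 0.00667 and 0.0224. In the averaged N40K comparison Sst fell, a call that was lost in 10 of 12 fits lacking 1 library, and Slc32a1 did not pass. Whether their changes differ, and whether the junction bases bear on them, was not tested.

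The other interneuron markers showed no call. Pvalb, the calcium-binding protein of fast-spiking cells, was 0.003, 0.002 and 0.003 in WT, 0.002, 0.002 and 0.003 in N40K, 0.003 in all 5xFAD and 0.002, 0.003 and 0.003 in dTg libraries. Vip, the peptide of cells that target other interneurons, was 0.009, 0.009 and 0.011 in WT, 0.011, 0.008 and 0.009 in N40K, 0.007, 0.01 and 0.009 in 5xFAD and 0.009, 0.011 and 0.009 in dTg libraries. Both overlapped fully between genotypes. The calcium-binding protein gene Calb1 was 0.00567 ± 0.000516 without and 0.00633 ± 0.000516 with N40K (SD, n = 6 each; adjusted p = 0.158), and Lhx6, a transcription factor of parvalbumin and somatostatin cells, was 0.0257 ± 0.00151 and 0.028 ± 0.002 (adjusted p = 0.172). The peptide genes Cck (0.008 to 0.015) and Npy (0.003 to 0.004), Calb2 (0.001 to 0.002), Reln (0.004 to 0.005) and the constant Erbb4 made up the rest.

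**Figure D2:**
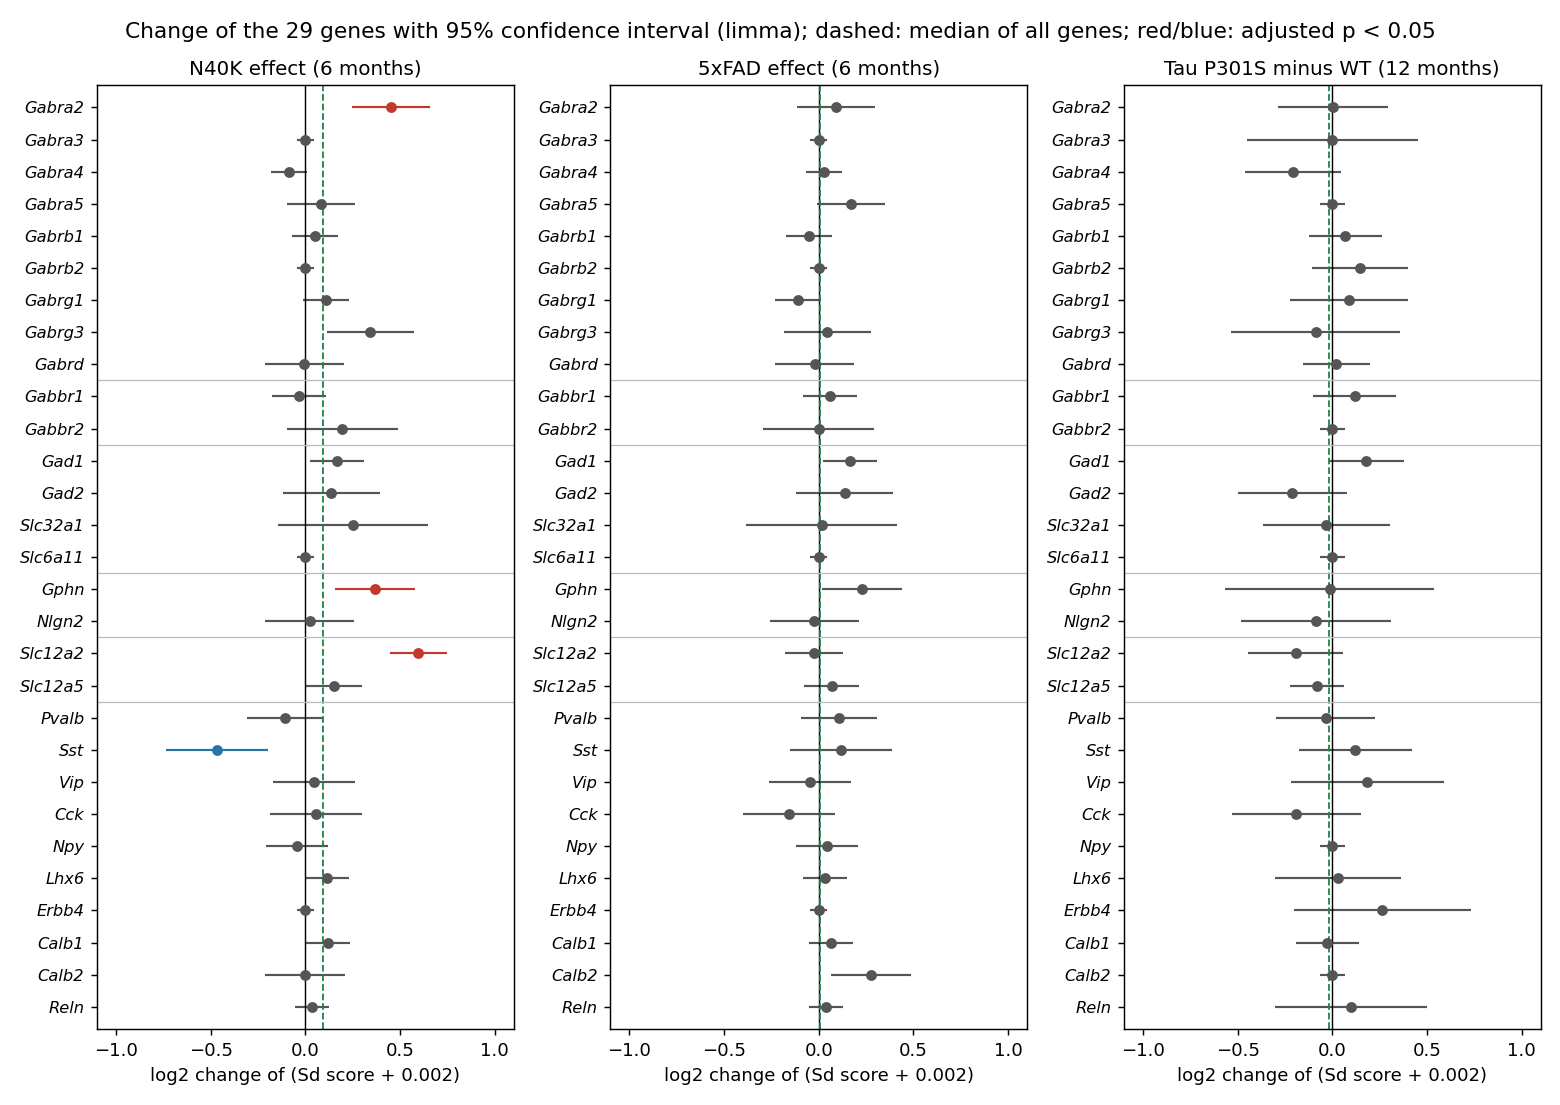
Change of each of the 29 genes on the scale of log2(Sd score + 0.002) for the N40K effect averaged over 5xFAD status, the 5xFAD effect averaged over N40K status, and Tau P301S minus WT; points are limma estimates, bars 95% confidence intervals, dashed lines the median of all genes, and grey lines part the roles. Slc12a2, Gabra2 and Gphn (higher) and Sst (lower) passed in the left panel, and no gene passed in the other 2.

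Counted over the set, 3 of the 29 rose and 1 fell in the averaged N40K comparison (limma, adjusted p under 0.05), which is 13.8% of the members. Over all 15705 genes 11.7% passed, so the share was near that of all genes. Of the members 10.3% rose, against 10.8% of all genes, and 3.45%, which is the single gene Sst, fell, against 0.936%. The median change of the 29 was 0.0537, below the 0.0945 of all genes, with 18 above 0, 6 below and 5 at 0. At an unadjusted p under 0.05 the count was 8 (29.1% of all genes), with 7 higher (26% of all genes) and 1 lower (3.06%). Carriers and other libraries did not overlap in 2 members, both higher (6.9%, against 5.11% of all genes), and none was lower in this way (0.395%). With centred libraries the median change over all genes moved from 0.09 to −0.04 and the split of calls over all genes from 1691 higher and 147 lower to 713 and 528. Slc12a2 and Gabra2 still rose and Sst still fell under this scaling.

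In the pairwise comparisons of groups with and without N40K few members passed, and dTg minus WT differs in the 5xFAD transgenes too. None passed in N40K minus WT (limma, 0.178% of all genes), with 7 at an unadjusted p under 0.05 (18.9% of all genes), of which 5 were higher (16.7%) and 2 lower (2.15%). Slc12a2, Gabra2 and Gabrg3 were higher without overlap in that comparison (16.8% of all genes) and Gabra4 and Sst lower without overlap (2.64%). In dTg minus WT 1 member, Slc12a2, passed (1.57% of all genes, 1.41% higher), and in dTg minus 5xFAD it was again Slc12a2 (0.312%, and 0.28% higher). At an unadjusted p under 0.05 there were 7 members in dTg minus WT (22.5% of all genes, 19.7% higher) and 4 in dTg minus 5xFAD (18%, and 15.9% higher), all of them higher. Slc12a2, Gabra2 and Gphn were higher without overlap in dTg minus WT (18.4% of all genes) and in dTg minus 5xFAD (14.4%).

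The N40K difference can be seen in separate animals without and with 5xFAD transgenes, since N40K minus WT and dTg minus 5xFAD share no library. In 11 of the 29 (37.9%) it was above 0 in both, in 2 (6.9%, Sst and Pvalb) below 0 in both, in 5 opposite, and in 11 it was 0 in at least 1 of them. Over all genes 54.9% were above 0 in both and 14.3% below in both. Of the 15705 genes, 3850 were opposite and 986 were 0 in at least 1 of them. An exact 0, where rounded scores were equal, was thus far more frequent in the members. The shares above or below 0 in both therefore cannot be compared directly with those of all genes.

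**Figure D3:**
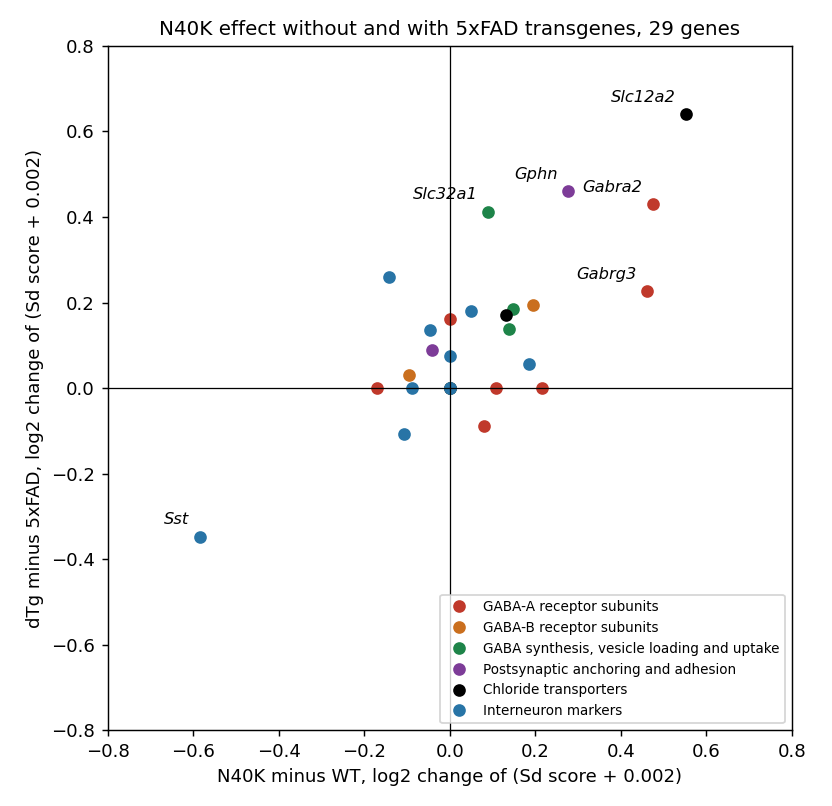
Difference of N40K minus WT (x axis) against dTg minus 5xFAD (y axis) on the scale of log2(Sd score + 0.002) for the 29 genes, coloured by role; both comparisons use separate libraries. Slc12a2 lies farthest to the upper right at 0.55 and 0.64, and Sst to the lower left at −0.58 and −0.35.

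The scatter of both backgrounds places Gabra2 (0.47 and 0.43) beside Slc12a2 in the upper right. Gphn (0.28 and 0.46) and Gabrg3 (0.46 and 0.23) were unequal in both. Slc32a1 was near 0 without 5xFAD (0.09) and at 0.41 with it, neither of which passed (adjusted p = 0.416 for the larger).

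Other genes of the pathway, from 3 longer lists, were taken as a comparison for the same averaged N40K effect. Of 19 further chloride transporters and regulators with a score, 4 rose and none fell (10.8% and 0.936% of all genes), with a median change of 0.16, against 0.09 over all genes. Slc4a10, a sodium-dependent chloride and bicarbonate exchanger, was 0.002 in all 6 libraries without and 0.003 in all 6 with the transgene (adjusted p = 6.96e-05), a single rounding step. Clcn2, a chloride channel, went from 0.0628 ± 0.0024 in non-carriers to 0.077 ± 0.00297 in carriers (SD, n = 6 each), a rise of 1.22-fold (adjusted p = 0.00609). In both the carriers lay above the other libraries without overlap. Slc12a1, named after its value was seen, rose as well (1.15-fold, adjusted p = 0.0404), with 0.0973 in N40K mice but 0.077 in dTg against 0.0767 in 5xFAD mice, and it missed the threshold in 9 of 12 fits that lacked a single library, with an adjusted p of at most 0.0923. After centring, Slc4a10, Clcn2 and Slc12a1 did not pass.

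Slc4a10 and Clcn2 were also called in pairwise comparisons. Slc4a10 passed in N40K minus WT, dTg minus WT and dTg minus 5xFAD (limma, adjusted p of 0.00124, 0.00101 and 0.00124). Its scores had no spread within any group, so its p-values rest on the variance that limma takes from other genes. After centring it passed in none of these comparisons. With a pseudocount of 0.01 it missed the threshold in N40K minus WT and dTg minus 5xFAD. Clcn2 passed in N40K minus WT (1.25-fold, limma, adjusted p = 0.045) and dTg minus WT (1.19-fold, 0.0444). It missed the threshold in both with any 1 of the 6 libraries left out (0.0524 to 0.156 and 0.0575 to 0.143). Each of these calls was also lost in 7 of 9 other settings, among them centring, a variance trend and fits of only the groups compared.

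Of 22 further GABA receptor and synapse genes, 3 rose with N40K and none fell (10.8% and 0.936% of all genes), with a median of 0.11, near the 0.09 of all genes. Iqsec3, an exchange factor that binds gephyrin, went from 0.0117 ± 0.00151 in non-carriers to 0.0175 ± 0.00259 in carriers (SD, n = 6 each), a rise of 1.42-fold without overlap (adjusted p = 0.0175). Trak1, a trafficking adaptor linked to GABA-A receptors (1.21-fold, adjusted p = 0.0284), and Aldh5a1, an enzyme of GABA breakdown (1.29-fold, 0.0354), rose too, but missed the threshold in 7 and 8 of 12 cases with 1 library left out (adjusted p up to 0.0687 and 0.0811, both without 5xFAD replicate 3). Of 27 further interneuron genes 4 rose and none fell (again beside 10.8% and 0.936%), with a median of 0.08, just under that of all genes. They were Satb1, a transcription factor of maturing interneurons (1.26-fold, adjusted p = 0.0104), Kcnc2, a potassium channel of fast-spiking cells (1.22-fold, 0.0116), Maf (1.25-fold, 0.0245) and Elfn1 (1.3-fold, 0.0404), the last named after its value was seen. Maf missed the threshold in 5 and Elfn1 in 9 of 12 cases with 1 library left out (up to 0.0598 and 0.0957). After centring, Trak1 (adjusted p = 0.118), Aldh5a1 (0.0644), Kcnc2 (0.0592), Maf (0.121) and Elfn1 (0.0923) did not pass, while Iqsec3 (0.0238) and Satb1 (0.0262) did.

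The amyloid transgenes gave no call among the 29. None passed in 5xFAD minus WT (limma, 0.0191% of all genes; 1 member at an unadjusted p under 0.05, against 4.39% of all genes and 1.92% in its direction, lower). That member was Cck, a peptide of a further interneuron class. Its mean score was 0.0137 ± 0.000577 in WT mice and 0.0103 ± 0.00208 in 5xFAD mice (SD, n = 3 each), a difference of −0.36 without overlap (limma, adjusted p = 1). It was the single member lower without overlap, where 2.92% of all genes were. In dTg mice Cck was 0.0127 ± 0.00153, with its libraries inside the N40K range.

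Averaged over N40K status, the 5xFAD effect passed in none of the 29 either (limma, 0.0446% of all genes), with 3 members higher at an unadjusted p under 0.05 (6.17% of all genes in either direction, 3.51% higher). Those were Gad1 (0.17, adjusted p = 0.692), Gphn (0.23, 0.756) and Calb2 (0.28, 0.617), the last at 0.001 in all WT and N40K libraries and at 0.001 or 0.002 in the others. dTg minus N40K had none (limma, 0.0191% of all genes), with Gphn higher and Gabrg1 lower at an unadjusted p under 0.05 (5.14% of all genes, 2.87% higher and 2.27% lower). Gphn was the member without overlap there, 0.002 against 0.003 (2.92% of all genes higher in this way).

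The interaction of both sets of transgenes passed in none of the 29 (limma, 0.0191% of all genes), and none reached an unadjusted p under 0.05 (2.87% of all genes). For Slc12a2 it was 0.09 with a 95% confidence interval of −0.21 to 0.39, and for Gabra2 −0.04 with an interval of −0.46 to 0.37. For Gphn it was 0.18 (−0.24 to 0.60). Intervals of this width leave room for differences between backgrounds as large as the Gabra2 and Gphn changes themselves.

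In Tau P301S cortex at 12 months no member passed (limma, 0.00658% of all genes) and none reached an unadjusted p under 0.05, against 8.28% of all genes. In no member did the groups lie apart without overlap (0.29% of all genes higher and 0.994% lower). Of the 29, 12 lay above 0, 11 below and 6 at 0, with a median of 0 against −0.0175 over all genes. The 3 lists of further GABA, chloride and interneuron genes had no call either, and in each of them 1 gene reached an unadjusted p under 0.05.

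The chloride transporters overlapped between Tau P301S and WT mice. Slc12a2 was 0.008 in all 4 WT libraries and 0.006, 0.005, 0.006, 0.008, 0.008 and 0.008 in Tau P301S replicates 1 to 6, so that 3 libraries equalled WT and 3 lay below. The difference was −0.19 (95% confidence interval −0.44 to 0.06, adjusted p = 0.681). Slc12a5 was 0.046, 0.041, 0.049 and 0.048 in WT and had a lowest, median and highest score of 0.039, 0.0435 and 0.046 in Tau P301S libraries (−0.08, interval −0.22 to 0.06). Of its Tau P301S libraries all but replicate 2 (0.039) lay within the WT range.

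Among the GABA-synthesising enzymes, Gad1 was 0.005, 0.004, 0.005 and 0.005 in WT and 0.005, 0.0055 and 0.007 (lowest, median and highest) in Tau P301S libraries (0.18, interval −0.02 to 0.38, adjusted p = 0.619). Gad2 was 0.02, 0.015, 0.015 and 0.023 in WT and 0.013, 0.0155 and 0.018 in Tau P301S libraries (−0.21, interval −0.50 to 0.08, adjusted p = 0.717). Both overlapped between the groups.

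Gphn spread widely within Tau P301S mice. Its score was 0.02, 0.017, 0.021, 0.009, 0.01 and 0.01 in replicates 1 to 6, on both sides of the WT values of 0.015, 0.011, 0.015 and 0.015. The 3 libraries high in Gphn are the 3 low in Slc12a2, and no label sets them apart from the others. The group difference was −0.01 with an interval of −0.57 to 0.54. The receptor gene Gabra2 was 0.003 on average in both groups, with an interval of −0.29 to 0.30.

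The interneuron markers were alike in their overlap. Sst was 0.005, 0.003, 0.006 and 0.006 in WT and 0.005, 0.0055 and 0.006 (lowest, median and highest) in Tau P301S libraries (0.12, interval −0.18 to 0.42). Vip was 0.005, 0.007, 0.007 and 0.007 in WT and 0.005, 0.0075 and 0.011 in Tau P301S libraries. Pvalb was 0.001 in 3 WT libraries and 0.002 in replicate 2, and 0.001 in the Tau P301S libraries other than replicate 4 (0.002). Erbb4 was at 0 in all WT libraries and at 0.001 and 0.002 in Tau P301S replicates 1 and 2, and at 0 in the others.

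**Figure D4:**
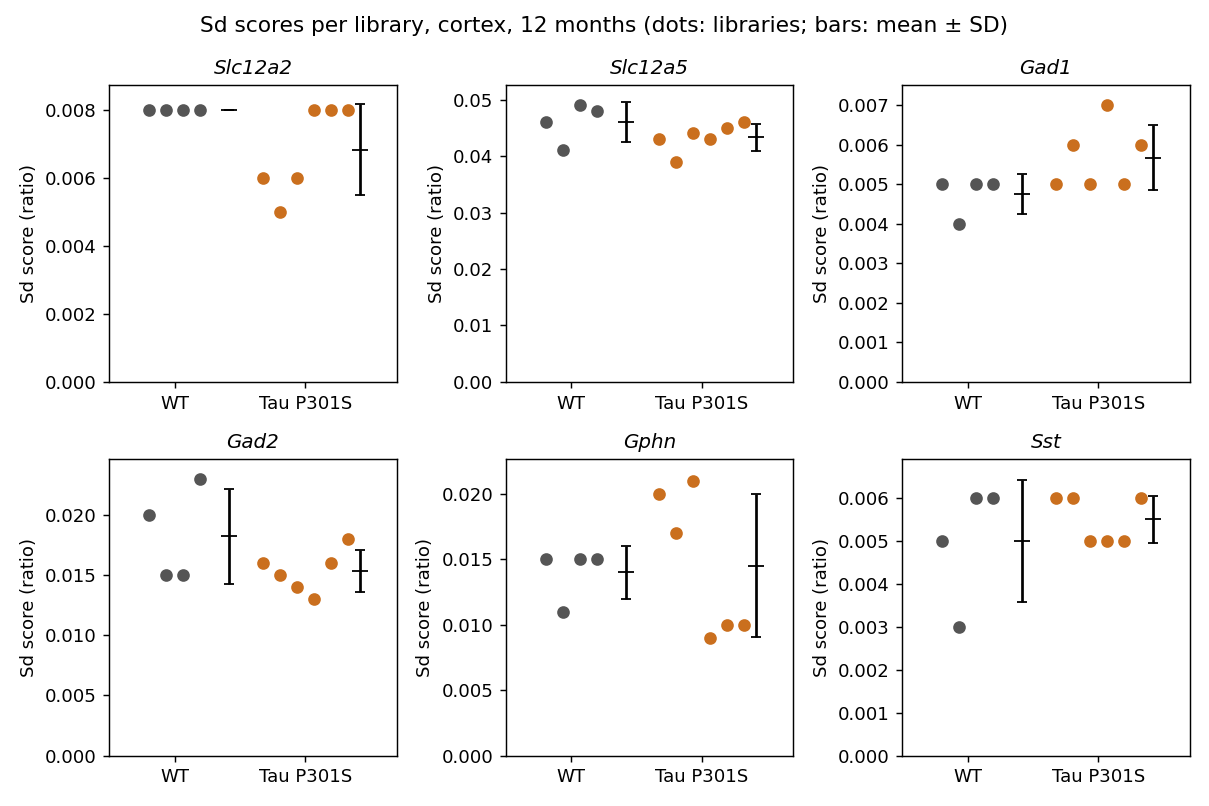
Sd scores (ratio, linear axes from 0) of 6 inhibitory genes in the 4 WT and 6 Tau P301S libraries at 12 months; dots are libraries, from replicate 1 at the left of each group, and bars the mean ± SD. The groups overlap in each gene, and 3 Tau P301S libraries of Gphn (0.017 to 0.021) lie above and 3 (0.009 to 0.01) below the WT values.

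The plot of 12-month libraries shows that Slc12a2 had no spread in WT, so that any Tau P301S library below 0.008 stands out by its rounding steps. It also shows the scores of Slc12a5, the highest of the set at this age.

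The wild-type scores of the same gene differed between the 6-month and the 12-month tables. These tables were deposited separately and come from different crosses and ages, so age, cross and processing cannot be told apart and no test was made. Slc12a5 was 0.018 ± 0.001 in the 6-month (n = 3) and 0.046 ± 0.00356 in the 12-month table (SD, n = 4), and Gabbr1 was 0.014 (no spread) and 0.0395 ± 0.00661. Gad2 went from 0.00133 ± 0.000577 to 0.0183 ± 0.00395 and Gphn from 0.00133 ± 0.000577 to 0.014 ± 0.002. These 4 had the largest differences of the 7 members whose ranges lay apart with the 12-month values higher. The ranges of 13 members lay apart with the 12-month values lower, and the largest differences were those of Lhx6 (0.026 ± 0.00173 and 0.011 ± 0.00183), Gabrd (0.0353 ± 0.00231 and 0.0208 ± 0.00263), Slc32a1 (0.0213 ± 0.00493 and 0.0095 ± 0.00238) and Nlgn2 (0.029 ± 0.00361 and 0.0183 ± 0.00499). Slc12a2 was among the 13, at 0.0123 ± 0.00115 and 0.008 (no spread). The other 9 members overlapped or touched. The median over all genes was lower in the 12-month table as well, at 0.013 to 0.017 in WT libraries against 0.029 to 0.03. How many of all genes had ranges apart was not counted, so these member counts have no share to be set against.

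**Figure D5:**
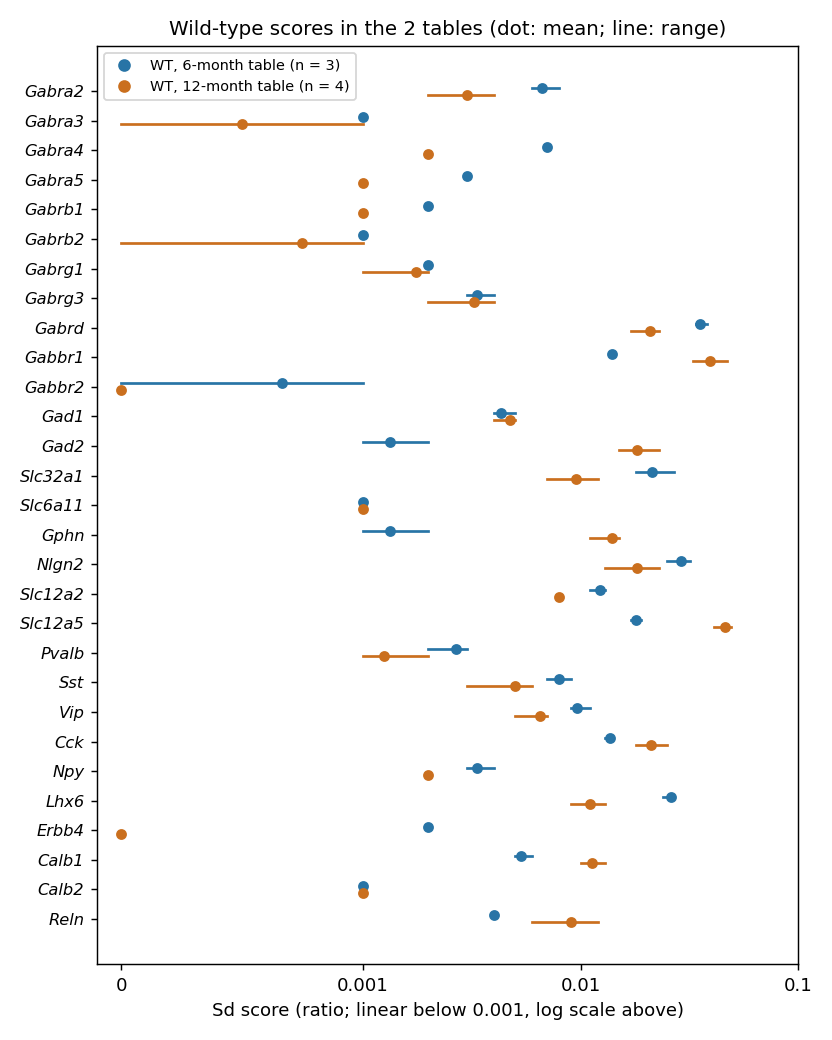
Wild-type Sd scores of the 29 genes in the 6-month (n = 3) and 12-month (n = 4) tables, on an axis that is linear below 0.001 and logarithmic above; dots are means and lines the range of the libraries. Slc12a5, Gabbr1, Gad2 and Gphn lie to the right in the 12-month table, and Lhx6, Gabrd, Slc32a1 and Nlgn2 to the left.

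At 12 months 14 members had a mean under 0.005, and Gabrd, Gabbr1 and Slc12a5 reached 0.02. The median of the 29 means was 0.0053, against 0.0152 over all genes of that table. Gabbr2 was listed at 0 in all 10 libraries, and Gabra5, Slc6a11, Npy and Calb2 had one constant value each. The plot of wild-type scores shows that the order of the members by score was thus not the same in both tables: Slc12a5 lay behind Gabrd, Nlgn2, Lhx6 and Slc32a1 at 6 months and was the highest at 12 months, where its libraries (0.041 to 0.049) overlapped with those of Gabbr1 (0.033 to 0.047).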

How the data were processed

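The deposited values are Sd scores, which the authors gave as a ratio with 3 decimals for each gene in each library, in 1 table of 12 cortex libraries at 6 months and 1 of 10 at 12 months. Libraries were poly(A)-selected and stranded, per the labels' protocols. CASAVA, STAR, BWA, bedtools 2.16.1 and the mm9 build are named, per the submitters' processing notes. The formula of the score, the counter, its strand setting and the annotation are not given in the sources used here, nor is read depth. Gene positions are not printed because GENCODE M21, used by Ensembl identifier for intron lengths, overlaps and exon sequences (29 of 29 members matched), is on GRCm38. The 12-month table names genes by symbol.

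Scores were put on the scale of log2(score + 0.002), with the pseudocount set to the 5th percentile of scores above 0 (0.002 in both tables), and fitted with limma 3.58.1 in R 4.3.3 (1 term per group, all libraries of a table in 1 fit, 8 residual and 1.2 or 1.11 prior degrees of freedom, no recentring). Calls are two-sided with Benjamini-Hochberg adjustment across the whole table and a threshold of 0.05. The script was tested on simulated data.

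The members, the lists of further genes and the tests were chosen with earlier results of these data known. Values of every library are given for Slc12a2, Slc12a5, Gad1, Gad2, Pvalb, Sst and Vip and for members that passed. In each list of further genes, up to 3 genes of smallest p in each direction are named, and genes of other cell types only where they passed. Alternatives were centring, a variance trend, pseudocounts of 0.001 and 0.01, filters on low scores, fits of single pairs of groups, a replicate block and left-out libraries. Results of 1 further chloride transporter are not reported here beyond its place in the counts.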

Additional observations from a re-analysis of the deposited data

Results flagged for a closer look

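In the groups of 4 WT and 6 Tau P301S libraries at 12 months, 1 library can be compared with the others by its gap relative to the group's range. For values without ties chance marks about 1 in 20 groups, and 43 groups with any spread were compared. These rounded scores tie often, and a single library that differs from tied others is always marked. That rate therefore does not hold here, and the number marked cannot be set against it. Groups of 3 were not. WT replicate 2 stood apart in Gphn (0.011, with the others at 0.015), Gad1 (0.004, others 0.005), Pvalb (0.002, others 0.001), Gabrg1 (0.001, others 0.002) and Gabrb2 (0, others 0.001). WT replicate 1 stood apart in Vip (0.005, others 0.007). Among Tau P301S libraries replicate 4 stood apart in Gabrd (0.019, others 0.021 to 0.022) and Pvalb (0.002, others 0.001), and replicate 2 in Gabrb1 (0.002, others 0.001). Of these 9 gaps, 6 are a single step of the last decimal. No member of the set differed in its effect between backgrounds by the interaction test.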

How the results depend on the processing

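Direction held in every member call under every alternative run. The averaged N40K count of 4 was 3 after centring (Gabra2, Slc12a2, Sst), 0 among genes with a mean score of at least 0.02 (all 4 lie below and were not tested), 1 without both libraries of highest median (Slc12a2), 2 to 4 with 1 library left out, and 4 with a trend, with either other pseudocount and without genes within 1 step. The count of 1 in dTg minus WT was 0 after centring, at a mean of at least 0.02, without both libraries of highest median and with only the groups compared, and 0 to 1 with 1 library left out. The count of 1 in dTg minus 5xFAD was 0 under the same 4 alternatives, with a pseudocount of 0.01 and without genes within 1 step, and 0 to 1 with 1 library left out. The 0 of N40K minus WT became 1 without both libraries of highest median (Slc12a2, adjusted p = 0.0421) and 0 to 1 with 1 library left out, as did that of dTg minus N40K (0 to 1, Gabrg1 without N40K replicate 3). In the other comparisons the count was 0 throughout, also without WT replicates 3 and 4 at 12 months, an alternative chosen after seeing the data. Apart from the filter on the mean, the cause of these moves was not tested.

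Replicate numbers did not pair the libraries: deviations of same-numbered libraries correlated between −0.2 and 0.0708 at 6 months (18 pairs) and between −0.265 and 0.191 at 12 months (4 pairs, 1 over 0.1). With a replicate block the averaged N40K count was 3 (Gabra2, Gabrg3, Slc12a2), and 0 in dTg minus WT (Slc12a2, adjusted p = 0.0728), in dTg minus 5xFAD (0.117) and in the other comparisons.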
